A study of Mus musculus with 20 samples.

Results

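The genes described here encode the membrane proteins of synaptic vesicles, the SNARE proteins that fuse vesicles with their target membranes, and the proteins that bind or take apart SNAREs. They were chosen by symbol alone: the synaptotagmins, syntaxins, VAMP proteins, the SNAP25 family, the synapsins, the SV2 proteins, synaptophysin (Syp), synaptoporin (Synpr), the syntaxin-binding proteins and Nsf. The rule found 55 genes among 19938 genes with a probe set of a single symbol. Of these, 54 passed the filter on dim probe sets and were tested together with 15057 genes in all. Vamp7 did not pass: its intensity was 7.9 to 15.8 in the photoreceptor layer and at most 30.2 on any array, and it enters no test. Vamp2, a vesicle SNARE of the brain, is not analysed here, since no probe set carried its symbol alone.

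RNA came from the retina of adult C57BL/6 mice, aged 7 to 8 weeks, that were light adapted for 6 h (450 lux) or dark adapted for 3 h (at most 0.4 lux). Laser capture microdissection separated the photoreceptor layer (photoreceptor somata with their outer and inner segments), the inner nuclear layer (somata of bipolar, horizontal, amacrine and Müller cells), the inner plexiform layer (a layer of synapses) and the ganglion cell layer; undissected whole retina was the remaining tissue. Every tissue has 2 arrays per adaptation, 10 groups in all, hybridised with cRNA after a second round of amplification. Which animals gave which array is not in the labels, so p-values measure only how far the deposited samples spread, and that spread may be technical.

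At a synapse, a calcium signal makes vesicles fuse with the cell membrane. A VAMP protein on the vesicle and a syntaxin and a SNAP25 protein on the target membrane zip into a complex that drives fusion, synaptotagmins sense the calcium, and Nsf takes the spent complexes apart. Synapsins tether vesicles in reserve, and SV2 proteins and synaptophysin are abundant vesicle membrane proteins. Most neurons use syntaxin 1 for this step, whereas photoreceptors and bipolar cells release glutamate at ribbon synapses, which are known for using syntaxin 3 and for lacking synapsins. Transcripts reside mainly in somata, so a layer that holds synapses need not hold the mRNA of their proteins.

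Stx3 and Sv2b were higher in the photoreceptor layer than in each of the other 3 dissected layers. Syn1 and Syt7 were lower there than in the mean of those layers, without passing against the inner nuclear layer alone (adjusted p = 0.175 and 0.254). Promoter sequence is shown for Stx3, Sv2b and Syn1, whose photoreceptor layer arrays did not overlap the other layers. The same held for the called members Snap47 and Stx6, whose windows are not shown, and for Syt7, for which no window was read. The windows are the 250 bases before an annotated start, read 5′ to 3′ in the direction of transcription, from RefSeq on GRCm38.p6. All lie on the minus strand: Stx3 at chr19:11819404-11819653, Sv2b at chr7:75302610-75302859 and chr7:75309263-75309512 (2 of its 4 windows), and Syn1 at chrX:20920919-20921168. Capitals mark TAATCC or its complement GGATTA, the core read by the homeodomain class to which the photoreceptor factor CRX belongs, or TTCAGCACC, the first arm of RE1, the site of the neuronal gene repressor REST.
Stx3: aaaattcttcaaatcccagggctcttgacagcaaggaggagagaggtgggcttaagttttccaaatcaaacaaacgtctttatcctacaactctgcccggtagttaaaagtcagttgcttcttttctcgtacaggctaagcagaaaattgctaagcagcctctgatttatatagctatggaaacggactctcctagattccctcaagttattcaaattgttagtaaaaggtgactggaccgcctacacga
Sv2b, downstream start: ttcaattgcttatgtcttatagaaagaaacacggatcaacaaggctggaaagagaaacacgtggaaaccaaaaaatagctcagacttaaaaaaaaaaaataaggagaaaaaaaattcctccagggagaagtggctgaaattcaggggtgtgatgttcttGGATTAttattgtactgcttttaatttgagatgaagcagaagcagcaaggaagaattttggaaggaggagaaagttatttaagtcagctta
Sv2b, upstream start: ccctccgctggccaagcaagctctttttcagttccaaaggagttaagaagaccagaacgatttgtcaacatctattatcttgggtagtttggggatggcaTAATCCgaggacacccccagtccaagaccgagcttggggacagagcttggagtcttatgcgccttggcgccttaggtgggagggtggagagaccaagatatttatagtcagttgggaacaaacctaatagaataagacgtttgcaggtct
Syn1: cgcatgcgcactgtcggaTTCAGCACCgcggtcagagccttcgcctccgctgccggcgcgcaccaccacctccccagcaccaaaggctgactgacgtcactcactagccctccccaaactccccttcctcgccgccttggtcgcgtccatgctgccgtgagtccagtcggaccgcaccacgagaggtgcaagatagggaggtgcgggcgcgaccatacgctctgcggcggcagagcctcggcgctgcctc

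Both strands were searched for each motif, in the 45 members with a window (61 windows; 10 members had none). TAATCC stood in 6.25% of all 32851 windows and in 3 windows of the members, which belonged to Sv2b and Syp. In the Sv2b windows shown, its first base lay 91 bases before the downstream start and 150 bases before the upstream start. The other windows of Sv2b, which are not shown, did not hold it. TTCAGCACC stood in 0.301% of all windows and in 1 window of the members, that of Syn1, 232 bases before the start. The windows of Stx3, Snap47 and Stx6 held neither, which says only that these letters are not in their 250 bases. A match is a description of the sequence and not a measured binding site.

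The arrays were even in scale, with median intensities of 37.5 to 40.8, and 44 of the 55 genes had a mean intensity above the mean of these medians. Replicates of a group correlated at 0.849 to 0.968 over the tested members. Some arrays stood apart over all genes: both light-adapted inner plexiform layer arrays (median correlations of 0.738 and 0.768 with other groups) and 3 arrays of whole retina, light-adapted replicate 2 (0.721) and the dark-adapted pair (0.783 and 0.77), against at least 0.817 for the others. Y-linked probe sets had a median of 192.2 to 306.2 on 5 light-adapted arrays (replicate 1 of the photoreceptor layer, inner nuclear layer and whole retina, and both of the ganglion cell layer) and of 8.6 to 25 on the other 15. Rod and ganglion cell markers followed the labels. The 7 measured rod markers summed to 5520.9 to 6020.6 in the photoreceptor layer and 402.9 to 1963.6 in the other layers. The 8 ganglion cell markers summed to 1776.5 to 3053.8 in the ganglion cell layer and 408.3 to 1053.7 in the others. All 5 cone markers were called higher in the photoreceptor layer. Of these, Opn1sw read 628 and 556.7 on its light-adapted arrays and only 1.4 and 1.5 on its dark-adapted ones. No marker was at 0 on any array.

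In the photoreceptor layer, 10 of the 54 tested members passed the test against the mean of the other 3 layers, 4 higher and 6 lower (moderated limma test, Benjamini-Hochberg adjusted p under 0.05). Over all genes 12.9% passed, 7.26% higher and 5.69% lower, and the members' share was 18.5%. The median difference was -0.10 over the members and -0.06 over all genes. The other 44 tested members lay between -0.77 (Syt11) and 0.63 (Syt14). Any difference between the 4 layers was called by a moderated F test in 12 members (22.2%, against 16.5% of all genes), and this count was 7 without replicate 1 of the light-adapted or of the dark-adapted photoreceptor layer. The layer means of a member spanned 0.53 on the log2 scale at the median, against 0.43 for all genes, and 9 of the 54 members spanned over 1, as did 9.2% of all genes. Here as in every bulk sample, fewer cells of a type and less RNA per cell cannot be told apart.

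**Figure D1:**
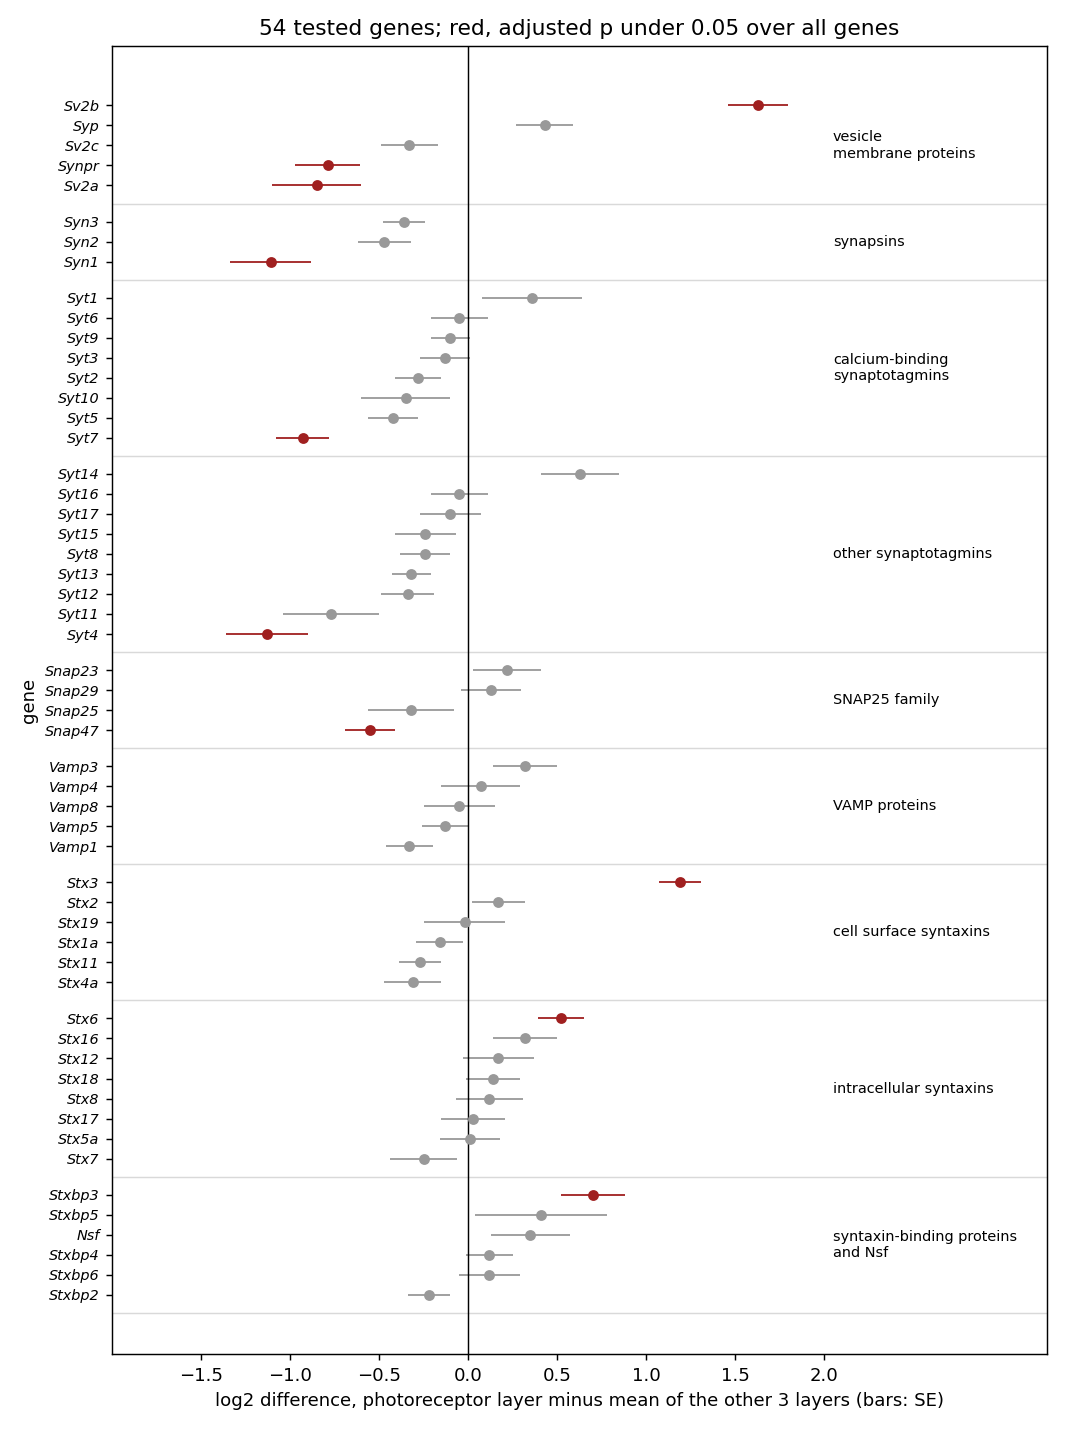
Log2 difference between the photoreceptor layer and the mean of the other 3 layers for the 54 tested genes, grouped by role; points are estimates, bars are standard errors and red marks an adjusted p under 0.05. Sv2b (1.63) and Stx3 (1.19) lie farthest to the right, and Syt4 (-1.13) and Syn1 (-1.11) farthest to the left.

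Among the vesicle membrane proteins, the SV2 paralogues went opposite ways. These transporter-like glycoproteins sit in the vesicle membrane, and 3 genes encode them. Sv2b read 208.8 and 204.7 on the light-adapted and 232.6 and 180.6 on the dark-adapted photoreceptor layer arrays. Elsewhere it read at most 97.6 (inner nuclear), 86.4 (inner plexiform) and 73 (ganglion cell layer), and 166.7 to 308.2 in the whole retina. No photoreceptor layer array overlapped any other layer. The log2 difference was 1.63 ± 0.17 (SE, 3.09-fold, adjusted p = 6.57e-06, n = 4 against 12), and it stayed called under all 30 alternatives tried, from 1.42 to 1.72.

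Sv2a, the most widely used member of the family in the brain, read 55.4 to 79.6 in the photoreceptor layer, 77.9 to 133.5 in the inner nuclear layer, 85.6 to 245.3 in the inner plexiform layer and 103.8 to 263 in the ganglion cell layer. The photoreceptor layer was lower by -0.85 ± 0.25 (adjusted p = 0.0308), with 2 of its arrays, at 78.5 and 79.6, inside the range of the inner nuclear layer. That call was lost in 6 of the 20 fits that leave out 1 array, namely any photoreceptor layer array, inner nuclear light-adapted replicate 2 or inner plexiform light-adapted replicate 1 (adjusted p of 0.0501 to 0.161), and without the 5 arrays with Y-linked signal (0.136). Sv2c did not pass (-0.33, adjusted p = 0.182).

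Synaptophysin and its relative synaptoporin also differed in sign. Synpr read 23.6 to 39.2 in the photoreceptor layer against 35.7 to 70.6 in the other layers, a difference of -0.79 ± 0.18 (adjusted p = 0.00575). The ranges overlapped through 1 dark-adapted photoreceptor layer array at 39.2, and the call was lost without dark-adapted replicate 1 (adjusted p = 0.0574). Syp read 313.3 to 370.4 there and 180.5 to 376.8 in the other layers, and its difference of 0.43 ± 0.16 did not pass (adjusted p = 0.0831).

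The synapsins, which hold vesicles in a reserve pool, had negative differences in all 3 cases, of which 1 passed. Syn1 read 41.3 and 43.9 on the light-adapted and 49 and 36.4 on the dark-adapted photoreceptor layer arrays. It read 54.1 to 94.1 in the inner nuclear layer, 59.4 to 106.3 in the inner plexiform layer and 84.1 to 237.8 in the ganglion cell layer, so every photoreceptor layer array lay below every array of the other layers. The difference was -1.11 ± 0.23 (2.16-fold, adjusted p = 0.00403). Syn2 (-0.47, adjusted p = 0.053) and Syn3 (-0.36, adjusted p = 0.0679) fell short of the threshold. Both passed when the light-adapted pair of the inner plexiform layer, which stood apart, was left out (-0.44, adjusted p = 0.0394, and -0.40, 0.0327).

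**Figure D2:**
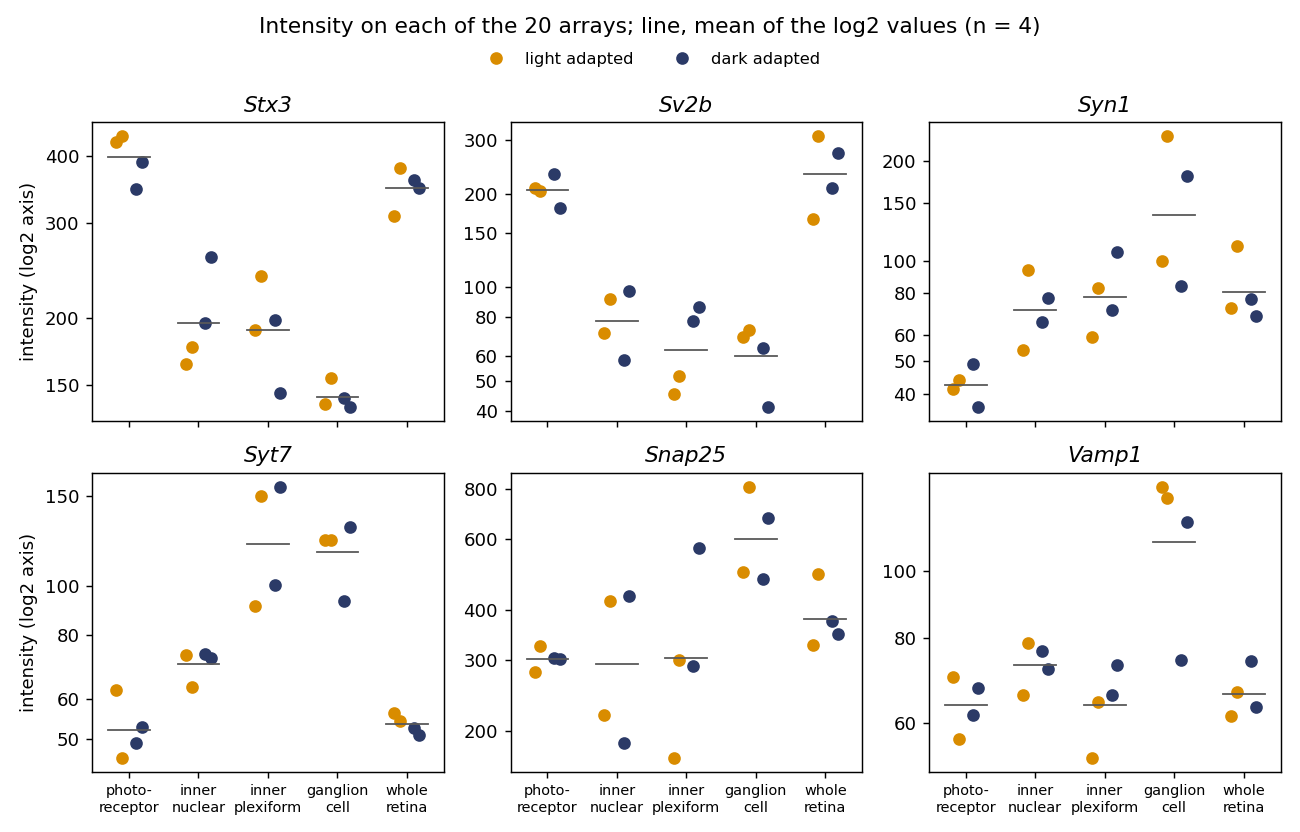
Intensity of Stx3, Sv2b, Syn1, Syt7, Snap25 and Vamp1 on each of the 20 arrays, on a log2 axis; orange points are light adapted, blue points dark adapted, and the line is the mean of 4 log2 values. Photoreceptor layer arrays stand above the other 3 layers for Stx3 and Sv2b and below them for Syn1 and Syt7, while Snap25 and Vamp1 are highest on average in the ganglion cell layer.

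Of the 8 synaptotagmins with calcium-binding C2 domains, Syt7 passed. Syt7 is a slow calcium sensor of high affinity that acts in asynchronous release and vesicle replenishment. It read 62.6 and 45.9 on the light-adapted and 49.1 and 52.8 on the dark-adapted photoreceptor layer arrays. The inner nuclear layer read 63.2 to 73.5, the inner plexiform layer 91.5 to 156.5 and the ganglion cell layer 93.3 to 130.6, and the whole retina, at 50.9 to 56.3, lay in the range of the photoreceptor layer. The photoreceptor layer was lower by -0.93 ± 0.15 (1.91-fold, adjusted p = 0.000489), a call kept under all 30 alternatives. The fast sensors of synchronous release were not called: Syt1 read 504.6 to 702.2 in the photoreceptor layer and 211.9 to 848.3 in the other layers (0.36, adjusted p = 0.453), and Syt2 differed by -0.28 (adjusted p = 0.189). Syt5 (-0.42, adjusted p = 0.0651) came nearest to the threshold among the rest.

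Among the 9 other synaptotagmins, Syt4 passed. Syt4 carries an altered calcium site and resides on dense-core and other secretory vesicles. It read 52.2, 88.4, 62.8 and 34 on the photoreceptor layer arrays and 58 to 204.8 in the other layers, a difference of -1.13 ± 0.23 (adjusted p = 0.00297) with overlap from inner nuclear and inner plexiform layer arrays at 75.6 and 58. Without the 5 arrays with Y-linked signal it was -0.93 and not called (adjusted p = 0.0732). Syt11, a relative that does not bind calcium, read 31.4 to 37.9 in the photoreceptor layer and did not pass there (-0.77, adjusted p = 0.0754). Apart from Syt4 and Syt7, none of the 15 synaptotagmins of both groups passed, with Syt1, Syt2, Syt5 and Syt11 counted among them.

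The SNAP25 family supplies SNARE helices on the target membrane. Snap25, the neuronal member, read 280.4 to 325.4 in the photoreceptor layer, a narrow range, against 171.3 to 811.4 in the other layers, and its difference of -0.32 did not pass (adjusted p = 0.43). Snap47, a broadly expressed member found on intracellular membranes, read 134.2 to 166.8 there, at least 168 in the other 3 layers and 160.2 to 203 in the whole retina. It was lower by -0.55 ± 0.14 (adjusted p = 0.0115), and the call was lost without light-adapted replicate 2 (0.0916) or dark-adapted replicate 1 (0.0688) of the photoreceptor layer. Snap23 (0.22, adjusted p = 0.506) and Snap29 (0.13, adjusted p = 0.665), the members used outside neurons and on internal membranes, were not called. Among the VAMP proteins none of 5 tested passed; Vamp1, the vesicle SNARE of many fast-firing neurons, differed by -0.33 (adjusted p = 0.111).

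Of the 6 syntaxins of the cell surface, Stx3 passed. It read 425.1 and 436.3 on the light-adapted and 347.8 and 389.5 on the dark-adapted photoreceptor layer arrays. The inner nuclear layer read 164.3 to 260.2, the inner plexiform layer 145.4 to 239.4, the ganglion cell layer 136.5 to 155 and the whole retina 309.5 to 380.9. Every photoreceptor layer array lay above every array of the other layers. The difference was 1.19 ± 0.12 (2.28-fold, adjusted p = 2.8e-06), and it ran from 1.07 to 1.30 over 30 alternatives, all called. Stx1a, the syntaxin of conventional synapses, read 98.5 to 111.6 in the photoreceptor layer and 95.8 to 138.5 in the other layers and did not pass (-0.16, adjusted p = 0.475).

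The 8 intracellular syntaxins serve the Golgi, the endoplasmic reticulum and endosomes, and 1 of them was called in this layer. Stx6, of the Golgi and early endosomes, read 77.7 to 108.6 in the photoreceptor layer and at most 73.8 in the others, a difference of 0.52 ± 0.13 (adjusted p = 0.0125). The call was lost without light-adapted replicate 1 (0.0557), light-adapted replicate 2 (0.0589) or dark-adapted replicate 2 (0.116) of that layer, and without the arrays with Y-linked signal (0.0926). Among the syntaxin-binding proteins, Stxbp3, which pairs with syntaxins of constitutive and regulated secretion outside synapses, was higher by 0.70 ± 0.18 (adjusted p = 0.0176). It read 51.3 to 71.6 there, 24.3 to 68.8 in the other 3 layers, so that the ranges overlapped, and 75.1 to 97.6 in the whole retina. The call was lost without light-adapted replicate 1 (0.106) or dark-adapted replicate 2 (0.127) of the photoreceptor layer, and without the arrays with Y-linked signal (0.275). Nsf, the ATPase that separates SNARE complexes, differed by 0.35 (adjusted p = 0.324).

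The rod markers moved with these differences: all 7 tested were higher in the photoreceptor layer, and 7 of 8 ganglion cell markers were lower (sums of 408.3 to 421.7 there and 447.6 to 3053.8 in the other layers). The part of cell mixture in each gene's difference was not tested. Without the 5 arrays with Y-linked signal the count was 6 (2 higher, 4 lower), with 6.96% of all genes called, and with Stx3 at 1.20, Sv2b at 1.67, Syn1 (adjusted p = 0.0152) and Syt7 (0.00927) still called. Without both light-adapted inner plexiform layer arrays 14 members and 10.5% of all genes were called, among them Stx3 (1.24) and Sv2b.

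The same comparison was made within the light-adapted and within the dark-adapted groups, whose means share no array. Both used the fit on all 20 arrays, so their standard errors and p-values rest on 1 shared estimate of the spread. Each gave 5 members called (3 higher and 2 lower), with 4.7% of all genes called in light and 4.64% in dark. Stx3 was higher by 1.30 ± 0.17 in light (adjusted p = 0.000167) and 1.07 ± 0.17 in dark (0.000781), Sv2b by 1.66 ± 0.25 (0.00055) and 1.59 ± 0.25 (0.000772). Syt7 was lower by -0.89 ± 0.21 (0.0232) and -0.98 ± 0.21 (0.012). Syn1 had equal differences of -1.11 and -1.12 and passed in neither (0.0646 and 0.068). Syt4 passed in the dark (-1.49, 0.0107) and not in the light (-0.77, 0.201), and Synpr in the light (-1.05, 0.0201) and not in the dark (-0.54, 0.296). No dark effect was found to differ between tissues for either gene (moderated F test over the 5 tissues, no member called).

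**Figure D3:**
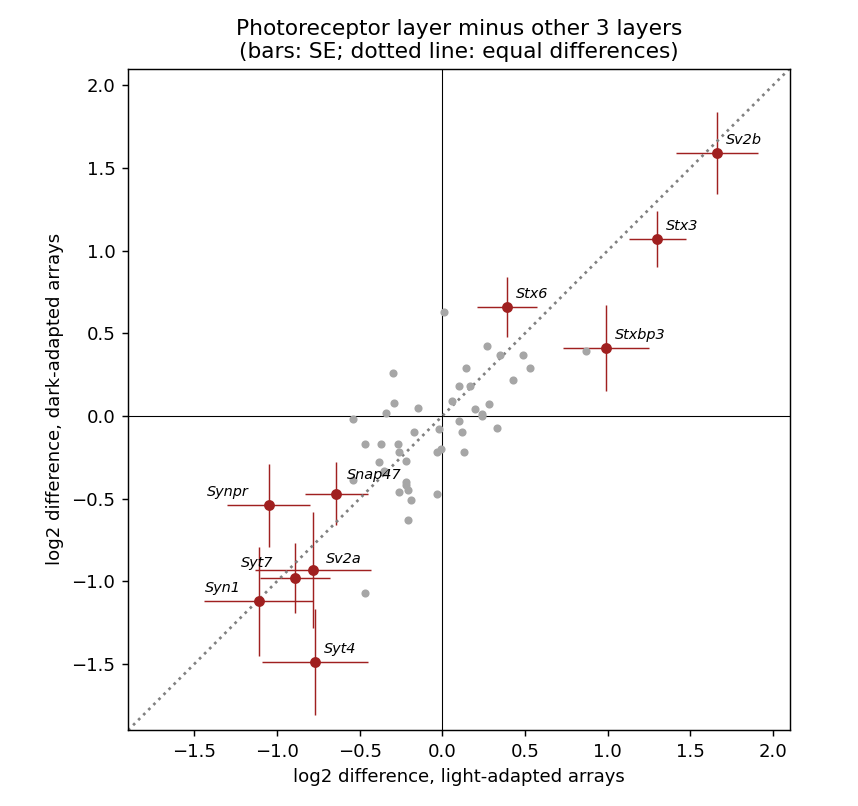
Difference between the photoreceptor layer and the other 3 layers for the 54 tested genes, in the light-adapted arrays (x axis) and in the dark-adapted arrays (y axis), in log2 units; red points passed in the fit on all arrays, with standard errors, and the dotted line marks equal differences. Sv2b (1.66 and 1.59) and Stx3 (1.30 and 1.07) lie in the upper right, and Syn1 (-1.11 and -1.12) and Syt7 (-0.89 and -0.98) in the lower left.

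In the inner nuclear layer no member was called against the other 3 layers by limma, where 0.611% of all genes passed. An unadjusted p under 0.05 was found for 3 of the 54 members and for 1546 of all 15057 genes. Bipolar markers summed to 639.2 to 1217.5 there and to 335.4 to 828.1 in the other layers, and 4 of 6 were higher. Stx3, the syntaxin of bipolar ribbon synapses too, had a difference of -0.17 (adjusted p = 0.676) in this comparison, whose other side contains the photoreceptor layer. Against the photoreceptor layer alone, Stx3 was 1.02 ± 0.14 higher in the photoreceptor layer (adjusted p = 0.000237). Among the dark-adapted groups alone that difference was 0.71 and did not pass (adjusted p = 0.119).

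In the inner plexiform layer 4 members were called, 2 higher and 2 lower, 7.41% of those tested against 13.6% of all genes (8.29% higher and 5.29% lower). Syt7 was higher by 0.68 ± 0.15 (adjusted p = 0.00772) and Synpr by 0.57 ± 0.18 (0.0411). Sv2b was lower by -0.65 ± 0.17 (0.0205) and Stx16, a syntaxin of the trans-Golgi network, by -0.61 ± 0.18 (0.0302). Ranges overlapped with the other layers in all 4 cases. Amacrine markers summed to 586 to 995.2 in this layer and 401.4 to 652.8 in the others, with 3 of 7 higher, and their part was not tested.

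The count in the inner plexiform layer depended on single arrays. It was 2 without light-adapted replicate 1 or dark-adapted replicate 1 of that layer, 2 without light-adapted replicate 1 of the photoreceptor layer, and 9 without light-adapted replicate 2 of the inner plexiform layer. It was 0 without both light-adapted inner plexiform layer arrays, the arrays that stood apart over all genes (0.217% of all genes). With the 5 arrays of Y-linked signal left out it was 2, and Sv2b (0.0573) and Synpr (0.114) lost their calls. Sv2b read 45.3 and 51.7 on these arrays and 77.9 and 86.4 on the dark-adapted ones; within light its difference was -1.13 (adjusted p = 0.00606) and within dark -0.17 (0.86). Syt7 read 91.5 and 149.8 in light and 100.2 and 156.5 in dark, and its difference without the light-adapted pair was 0.73 (adjusted p = 0.117). Synpr lost its call in 12 of the 20 fits without 1 array (0.0515 to 0.177), and Stx16 in 5 (0.0514 to 0.114).

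In the ganglion cell layer 7 members were called, 5 higher and 2 lower. This was 13% of those tested, against 1.87% of all genes (1.17% higher and 0.704% lower), and the median difference was 0.12 over the members and -0.01 over all genes. Syn1 was higher by 1.16 ± 0.23 (adjusted p = 0.0141), Vamp1 by 0.73 ± 0.13 (0.00604), Syt11 by 1.24 ± 0.27 (0.0252), Snap25 by 1.00 ± 0.24 (0.0407) and Syt7 by 0.61 ± 0.15 (0.0476). Stx3 was lower by -0.78 ± 0.12 (0.00158) and Sv2b by -0.74 ± 0.17 (0.037).

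The array values show how far these groups separate. Snap25 read 497.7 and 811.4 on the light-adapted and 477.2 and 676.9 on the dark-adapted ganglion cell layer arrays, and up to 572.5 in the other layers. Vamp1 read 132.7, 127.9 and 117.9 on 3 arrays and 74.3 on dark-adapted replicate 1, which lay inside the range of the inner nuclear layer (65.9 to 78.6). Syn1 read 100.4 and 237.8 in light and 84.1 and 180.7 in dark, a wide spread, with the other layers at 36.4 to 106.3. Syt11 read 73.6, 151, 66.3 and 126.1, and 9.9 to 73 in the other layers. All 7 called members overlapped with another layer on at least 1 array.

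Single arrays carried much of this count. It was 1 without dark-adapted replicate 2 and 2 without light-adapted replicate 2 of the ganglion cell layer, and 3 and 4 without light-adapted replicate 2 and dark-adapted replicate 1 of the photoreceptor layer. With no filter on dim probe sets it was 2 (0.923% of all genes), and without both light-adapted inner plexiform layer arrays Snap25 (0.86, adjusted p = 0.122) and Syt11 (0.92, 0.0779) lost their calls. Both light-adapted ganglion cell layer arrays are among the 5 with Y-linked signal, and with those 5 left out no member was called (adjusted p = 0.0725 for Stx3 at -0.83, and 0.0958 to 0.49 for the others). In the fits without 1 array Stx3 kept its call each time. Vamp1 lost it without dark-adapted replicate 2 of the layer (0.094), Syn1 without either replicate 2 (0.184 and 0.118), and Syt11 without either replicate 2 or light-adapted replicate 2 of the photoreceptor layer (0.0526 to 0.254). The calls of Sv2b (8 of 20 fits), Snap25 (12 of 20) and Syt7 (16 of 20) were lost most often. Ganglion cell markers moved with these genes, 7 of 8 being higher in this layer (sums of 1776.5 to 3053.8, against 408.3 to 1053.7 in the others), and their part was not tested.

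Each pair of layers was also compared directly. Over all genes, 5.33%, 21.4% and 7.66% passed between the photoreceptor layer and the inner nuclear, inner plexiform and ganglion cell layers, and 4.85%, 0.458% and 3.1% among the inner layers. In the same order, 7.41%, 18.5% and 24.1% of the tested members passed, and 1.85%, 0% and 3.7% among the inner layers. The members gave 30 pairwise differences past the threshold, of which 13 kept the call in all 20 fits without 1 array and 17 lost it in 1 to 18 of them. Stx3 was higher in the photoreceptor layer than in the inner nuclear (1.02), inner plexiform (1.06) and ganglion cell layer (1.48), and Sv2b by 1.40, 1.71 and 1.77; all 6 differences were among the 13. Leaving out the light-adapted inner plexiform layer pair ended 9 of the 30 calls, and leaving out the 5 arrays of Y-linked signal ended 19. Of the 13, 9 were kept both times: the 6 of Stx3 and Sv2b, both of Syt7 that involve the photoreceptor layer, and that of Syn1 between the photoreceptor and ganglion cell layers. Neither Stx3 nor Sv2b gave a called difference among the inner layers.

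For the genes lower in the photoreceptor layer the order of the layers differed. Syt7 was lower in the photoreceptor layer than in the inner plexiform (-1.21) and ganglion cell layer (-1.16), which stood at means of 6.92 and 6.86 on the log2 scale, and the inner nuclear layer lay between (6.14, and -0.78 against the inner plexiform layer). Syn1 stood at 5.41 ± 0.18 (SD, n = 4) in the photoreceptor layer, 6.16 ± 0.34 and 6.29 ± 0.36 in the inner nuclear and inner plexiform layers and 7.11 ± 0.70 in the ganglion cell layer. The outer ends of that order differed by -1.70 (adjusted p = 0.000861), and neighbouring layers in it did not pass. The photoreceptor layer was also lower than the inner plexiform layer for Syn1, by -0.88 (adjusted p = 0.0367). That call was lost without the light-adapted inner plexiform layer pair (-1.04, 0.105). Vamp1 stood at 6.00, 6.19 and 6.00 in the other 3 layers and 6.79 in the ganglion cell layer, and the photoreceptor layer differed from it by -0.79, a call lost without the 5 arrays of Y-linked signal (-0.63, adjusted p = 0.203). Syt4 differed between the photoreceptor and ganglion cell layers by -1.45, lost likewise (-1.11, 0.154). Snap47 and Synpr differed between the photoreceptor and inner plexiform layers by -0.72 and -1.02, and both calls were lost without the light-adapted inner plexiform layer pair (-0.55, 0.0982, and -0.79, 0.1).

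**Figure D4:**
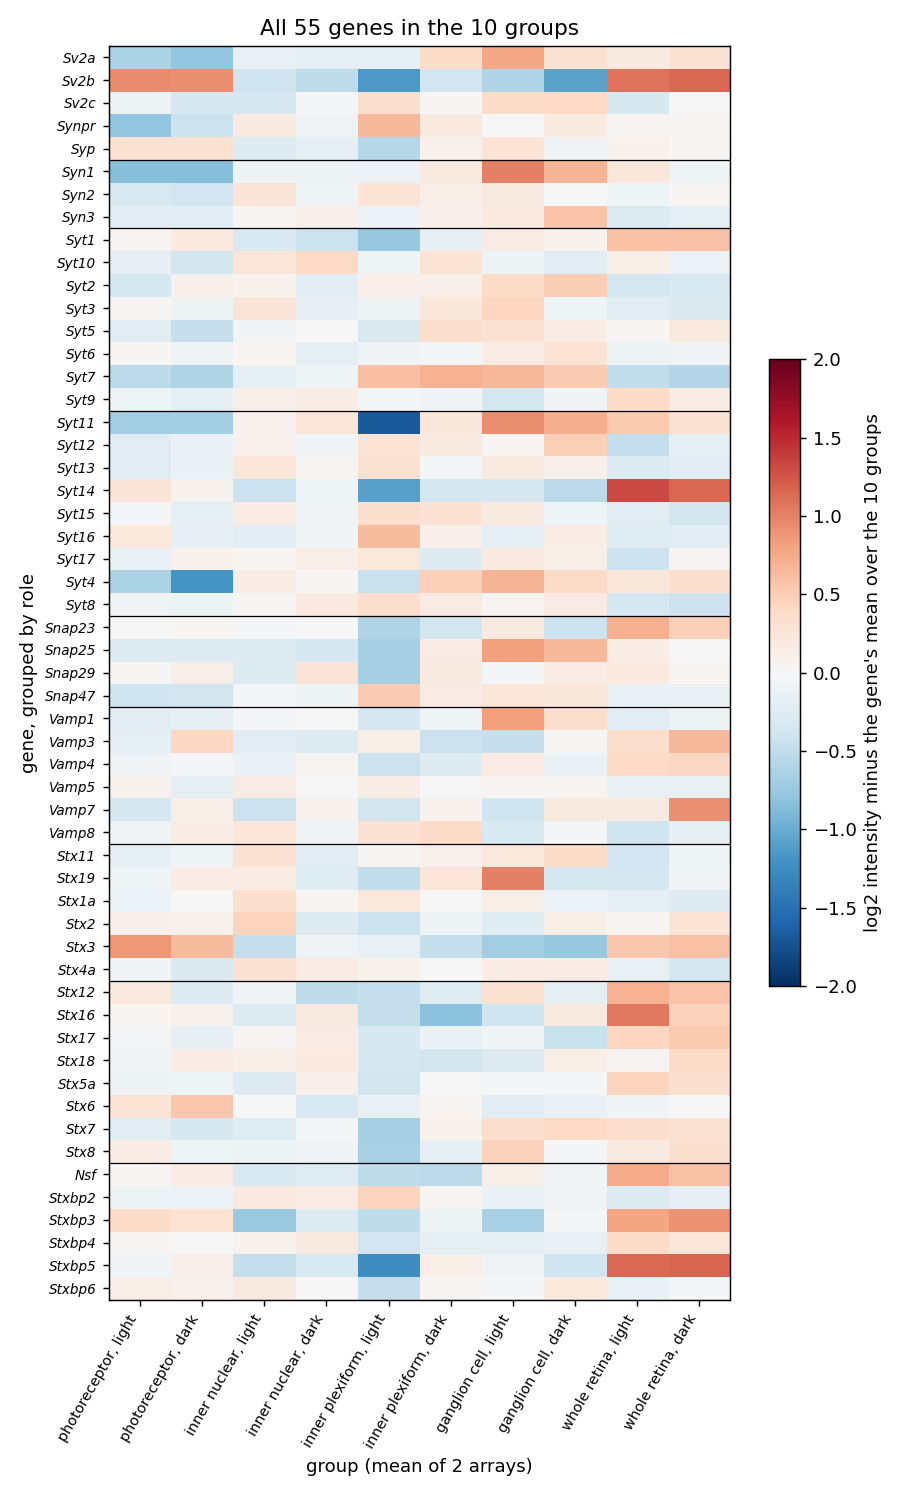
Mean log2 intensity of each of the 55 genes in the 10 groups (2 arrays each), relative to the gene's own mean over the groups; rows are grouped by role and black lines separate the roles. Sv2b and Stx3 are red in both photoreceptor layer columns and in the whole retina, Syn1, Syt7 and Syt4 are blue in both photoreceptor layer columns, and the deepest blue of all is Syt11 in the light-adapted inner plexiform layer.

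Other genes of the vesicle cycle were read from 3 lists. The list of SNARE assembly and priming holds complexins, Munc13 and CAPS proteins and adaptors of Nsf, and 14 of its 15 genes were tested. In the photoreceptor layer, where 12.9% of all genes passed, 6 of these did (42.9%), 3 higher and 3 lower. Higher were Cplx4, a complexin of ribbon synapses (3.04), Doc2b, a calcium-binding release factor (1.71), and Unc13b, a Munc13 priming protein (0.68). Lower were Cplx2 (-0.73) and Cplx1 (-0.90), the complexins of conventional synapses, and Cadps, the priming factor CAPS1 (-1.89). The list of other SNAREs had 8 of 10 genes tested and 1 call (12.5%), Sec22b of the early secretory route (0.93). Of the 28 tested genes among 31 other vesicle proteins, 4 were higher and 3 lower (25% called). These included the vesicular glutamate transporters Slc17a7 (1.96) and Slc17a6 (-0.92), the recycling phosphatase Synj1 (0.77) and the Rab3 effector Rph3a (-0.98).

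In the ganglion cell layer, where 1.87% of all genes passed, the 3 lists gave 3 calls (2 higher, 1 lower), 0 calls and 5 calls (4 higher, 1 lower). Cplx1 (1.31), Cplx2 (0.56), Rph3a (0.77), Slc17a6 (2.29) and the vesicle GTPases Rab3a (0.73) and Rab3c (1.61) were higher, and Cplx4 (-0.96) and Slc17a7 (-1.46) lower. In the inner plexiform layer, where 13.6% of all genes passed, they gave 4, 1 and 4 calls of 14, 8 and 28 genes tested, among them Doc2a (0.78) and Cplx2 (0.57) higher and Cplx4 (-1.30) lower, and in the inner nuclear layer (0.611% of all genes) 1, Cplx1 (-0.78). The 14 calls of the 50 genes in the photoreceptor layer (12.9% of all genes) became 7 without light-adapted replicate 2 and 8 without dark-adapted replicate 2 of that layer. The 8 in the ganglion cell layer became 3 without its dark-adapted replicate 2 and 5 without its light-adapted replicate 2, and the 9 in the inner plexiform layer became 5 without its dark-adapted replicate 1.

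Dark adaptation was set against light adaptation tissue by tissue, 2 arrays against 2, with a median standard error of 0.29 over the members. By limma no member was called in the photoreceptor layer (0.0465% of all genes), the inner nuclear layer (0%), the ganglion cell layer (0.00664%) or the whole retina (0.0266%). At an unadjusted p under 0.05 these held 0, 2, 3 and 0 of the 54 members, and 1.49%, 3.14%, 4.08% and 0.897% of all genes. The mean dark effect over the 5 tissues (0.0133% of all genes) and the F test for a dark effect that differs between tissues (0.0266%) called none either. Each had 2 members at an unadjusted p under 0.05, against 920 and 888 of all 15057 genes. In the same order of tissues, the median size of the difference was 0.11, 0.16, 0.22 and 0.11 over the members and 0.15, 0.18, 0.18 and 0.14 over all genes. A p that misses the threshold does not show that light and dark were equal.

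The genes with the smallest p in the photoreceptor layer were Syt2 (0.46), Vamp3, an endosomal vesicle SNARE (0.59), and Syt4 (-0.56), all at an adjusted p of 1. In the inner nuclear layer Stx2 (-0.71), Stx11 (-0.51) and Stx3 (0.41) came first, and in the whole retina Stx16 (-0.59), Syt17 (0.47) and Stx11 (0.29). The largest in the ganglion cell layer was Stx19, a syntaxin of epithelia, at -1.33 ± 0.40 (adjusted p = 1): it read 70.3 and 35.1 in light and 21.9 and 17.8 in dark, and 12.3 to 35.5 in the other layers. Syt3 (-0.51) and Vamp1 (-0.48) followed. In this layer the Y-linked median was 306.2 and 192.2 on the light-adapted arrays and 12.4 and 10.9 on the dark-adapted ones. Adaptation and Y-linked signal therefore cannot be told apart there. The photoreceptor layer, inner nuclear layer and whole retina had such signal on light-adapted replicate 1 only, which also enters the mean over tissues. Averaged over tissues, Snap29 (0.30), Stxbp3 (0.30) and Stx18 (0.20) had the smallest p. Stx3 and Snap25 had mean dark effects of -0.03 and 0.09.

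In the inner plexiform layer 1 member was called, 1.85% of those tested against 1.83% of all genes (0.717% higher and 1.12% lower in the dark). Syt11 read 9.9 and 30.4 on the light-adapted and 57.6 and 73 on the dark-adapted arrays, which did not overlap, a difference of 1.90 ± 0.47 (3.74-fold, adjusted p = 0.0497). One light-adapted array stood near the floor of 8. The call was lost in 15 of the 20 fits without 1 array (adjusted p of 0.0525 to 0.292) and without the 5 arrays of Y-linked signal (0.0735), and the value was 1.09 without light-adapted replicate 1 of that layer. The median dark effect here was 0.20 over the members and -0.03 over all genes. Snap29 (0.84, adjusted p = 0.134) and Syt5 (0.63, 0.184) came next. Stxbp5, or tomosyn, which competes with VAMP for syntaxin, was picked after its values were seen: it read 85.7 and 61.5 in light and 90.5 and 393.1 in dark, a difference of 1.38 (adjusted p = 0.253) that rests on 1 array. Of the other vesicle cycle genes, Cplx3, a complexin of ribbon synapses, was higher in the dark in this layer (1.41, adjusted p = 0.0355). The light-adapted arrays of this comparison are those that stood apart over all genes, and their part in it was not tested.

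**Figure D5:**
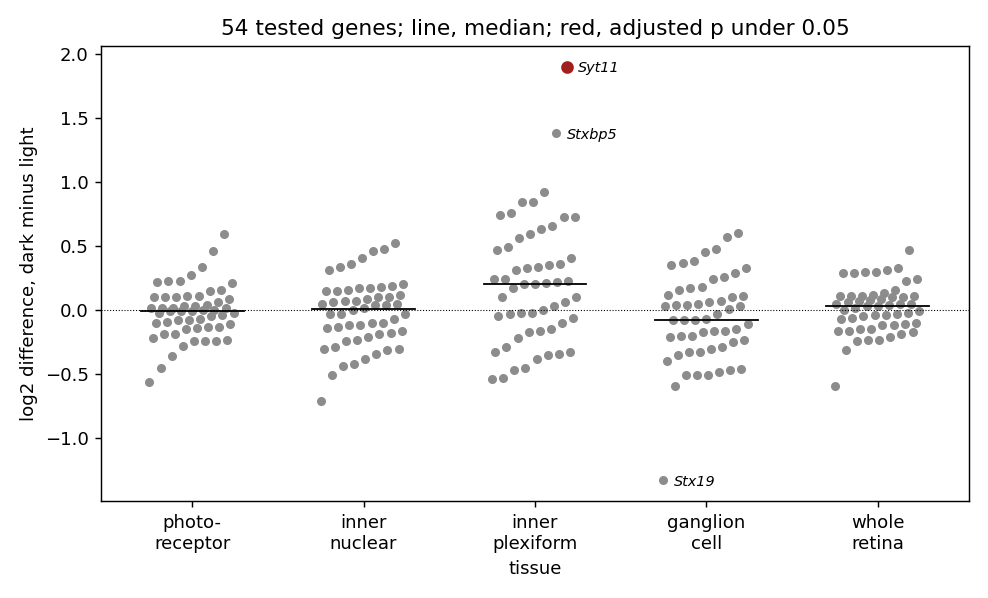
Dark minus light difference, in log2 units, of each of the 54 tested genes in the 5 tissues; lines are medians, red marks an adjusted p under 0.05, and genes beyond 1 in size are named. The spread is widest in the inner plexiform layer, where Syt11 lies at 1.90, and narrowest in the photoreceptor layer and the whole retina.

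Stxbp4 was the only member with 2 probe sets of its own symbol; they correlated at 0.818 over the 20 arrays, the brighter one read 28 to 59.3 and was used, and the dimmer one read 10.2 to 104.9. The mean intensity was under 50 for 21 of the 55 genes, among them Snap23, Snap29, Stx16 and Stx19, and 17 had a mean over 100. Over the layers, the highest of the 4 means lay in the ganglion cell layer for 21 of the 54 tested genes, in the photoreceptor layer for 15 and in the inner nuclear and inner plexiform layers for 9 each, with no test of these counts. The lowest mean lay in the photoreceptor layer for 23 and in the inner plexiform layer for 20. The whole retina, which holds every layer, read 96.4 to 146 for Syt14, a synaptotagmin without a calcium site picked after its values were seen, against 22.8 to 75.8 in the 4 dissected layers.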

How the data were processed

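RNA of 20 samples was hybridised to Affymetrix gene arrays. The deposited values are intensities, 1 per probe set and array, made by the authors with GCRMA (per the submitters' processing notes; its version, and the build behind the probe sets, are not given in the sources used here). Their linear scale was read from the values. Intensities under 8 were set to 8 and put on a log2 scale. The platform table gave 1 symbol for 21789 of 35557 probe sets, several for 1621 and none for 12147. Those over a log2 value of 5 on at least 2 arrays were kept, and the brightest one stood for each gene (15057 genes).

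One limma fit (limma 3.58.1, R 4.3.3) gave a mean to each of the 10 groups, with 10 residual degrees of freedom and a trend. Two-sided p-values were adjusted by Benjamini-Hochberg over all genes of a comparison, and 0.05 was the threshold. Precision is limited by how few arrays there are. The fit was tested on simulated data. Alternatives were an offset of 16, quantile normalisation, no filter and a filter at 7, averaged probe sets, and the replicate number as a block. Others were leaving out arrays, and comparing layers among light-adapted or dark-adapted groups alone, within the fit on all 20 arrays.

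The members, roles, pathway lists and markers were chosen with earlier results of these data known. Named genes are called members whose arrays do not overlap in a layer comparison, a fixed set of core genes, the called member or the 3 smallest p of each dark comparison, members with several probe sets, and up to 4 called genes of each pathway list. Other members and pathway genes were added, chosen after their values were seen. Promoter windows came from RefSeq (GRCm38.p6).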

Additional observations from a re-analysis of the deposited data

Results flagged for a closer look

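The 4 arrays of a tissue were examined for 1 outlying value in each of 18 members with a called difference, 90 groups of 4 in all, and 5 stood apart from the rest; chance marks about 1 group in 20. Stx16 read 96.9 on light-adapted replicate 2 of the whole retina and 42.6 to 47.9 on the other whole retina arrays. Stx6 read 108.6 on replicate 2 of the dark-adapted photoreceptor layer and 77.7 to 81.1 on the others, and its call in that layer was lost without this array. Syt7 read 63.2 on replicate 2 of the light-adapted inner nuclear layer and 72.1 to 73.5 on the others. Syt14 read 75.8 on replicate 2 of the dark-adapted inner plexiform layer, against 22.8 to 27.2, and 49.4 on replicate 2 of the light-adapted ganglion cell layer, against 36.7 to 37.4.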

How the results depend on the processing

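No difference of a named member changed sign at a called value under any alternative. Stx3, Sv2b and Syt7 in the photoreceptor layer kept their calls under all 30. Counts of called members that moved by over 1.5 times follow, with the share of all genes called in brackets. The cause of a move was not tested, also where fewer arrays entered the fit. Photoreceptor layer, 10: 17 with the replicate block (17.8%), 6 without the arrays with Y-linked signal (6.96%), 5 in light or dark alone (4.7% and 4.64%). Inner plexiform layer, 4: 8 with the replicate block (19.7%), 2 without the Y-linked signal arrays (8.71%), 0 without its light-adapted arrays (0.217%) or in dark alone (0.0598%). Ganglion cell layer, 7: 2 with no filter (0.923%), 0 without the Y-linked signal arrays (0.325%), 1 in light or dark alone (0.372% and 0.438%). Any layer difference, 12: 4, 7 and 3 without the Y-linked signal arrays, in light and in dark (8.1%, 11.7% and 2.8%). Dark minus light in the inner plexiform layer, 1: 2 with the replicate block (5.19%), 0 with the offset of 16, quantile normalisation, no filter, the filter at 7, the probe set mean or without the Y-linked signal arrays.

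For the other pathway genes, the photoreceptor layer count of 14 became 9 without the Y-linked signal arrays and 7 in light or dark alone. The inner nuclear layer count of 1 became 2 with the offset or the filter at 7, 5 with the replicate block, and 0 with quantile normalisation, no filter, either set of arrays left out or dark alone. The inner plexiform layer count of 9 became 14 with the replicate block, 1 without its light-adapted arrays and 0 in dark alone. The ganglion cell layer count of 8 became 4 without the Y-linked signal arrays, and 2 and 4 in light and dark.

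Leaving out each array in turn gave 7 to 13 members (photoreceptor layer), 0 (inner nuclear), 2 to 9 (inner plexiform), 1 to 8 (ganglion cell layer), 7 to 16 for any layer difference, 0 to 1 for dark minus light in the inner plexiform layer and 0 in each other dark comparison. The other pathway genes gave 7 to 15, 0 to 3, 5 to 11 and 3 to 9 in the same layers. A group left with 1 array is assumed to vary like the others.

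The labels number replicates 1 and 2 in every group. Deviations of same-numbered arrays correlated by 0.01 to 0.48 between groups (median 0.13), and 32 of 45 correlations were over 0.1. Since 13 were not, and the labels name no shared animal, batch or day, the numbers were not taken as a pairing. With the replicate block Syp (0.43, adjusted p = 0.00917), Syn2 (-0.47, 0.0332) and Syn3 (-0.36, 0.047) passed in the photoreceptor layer.

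Weak signal limits dim genes: 21 of 55 had a mean intensity under 50. With 2 arrays a group, a dark effect of a member had a median standard error of 0.29.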
